A study of Mus musculus with 2 samples.

Results

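Autosomal genes with a strong bias to the BL6 allele were examined in nuclei of 1 adult heart (9 weeks) and 1 aged heart (78 weeks). Both hearts came from female F1 animals with a BL6 mother (C57BL/6J) and a CAST father (CAST/EiJ). The genotype of the study is wild type, although the breed label of both samples names the cross with an Xist -/+ mother. Only nuclei with an active BL6 X chromosome entered the counts, and they were pooled to 1 library per age. A read over a single-nucleotide difference between the strains (SNP) was assigned to BL6 or CAST, and the allelic ratio is the number of BL6 reads over all SNP-overlapping reads of a gene. A gene was included when it lay on chromosomes 1 to 19, held 100 or more reads in each library and had an allelic ratio of 0.85 or more in each library. Of 25235 loci listed, 7068 autosomal loci had enough reads in both libraries and 42 of these (0.594%) met the rule. The genes were chosen by their allelic ratio, which is therefore described here without a test. No test between the ages was possible with a single library of each, and every interval given is an exact 95% interval that covers counting error only.

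In genomic imprinting, the allele of a parent is silenced by marks set in the germ line, so that a maternally expressed gene is read from the maternal chromosome whatever its strain. A difference between strains in the regulatory sequence of a gene acts in cis and likewise raises the reads of 1 allele. Reads that carry the BL6 base can align to the BL6 reference genome more readily than CAST reads, and reads from similar copies can be placed at the wrong locus. In this cross the mother is always BL6, so parent of origin and strain cannot be told apart from the allelic ratio of a gene alone. Genes known as maternally expressed were therefore separated with a list of 50 imprinted genes compiled from background knowledge.

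In total, 9747535 reads overlapped a SNP in adult and 5805807 in aged nuclei. The BL6 share of the autosomal reads was 53.4% in adult and 53.8% in aged nuclei. The summed level of 6 cardiomyocyte markers was 27942 reads per 1000000 SNP-overlapping reads (RPM) in adult and 26156 in aged nuclei. Within this sum Ttn had 11849 RPM in adult and 6872 in aged nuclei, whereas Actc1 had 337 and 1385. Of the 3 skeletal muscle markers, Myh1 and Myh4 were at 0 in both, and Acta1 had 2 and 5 reads. Apoa1 of liver and Sftpc of lung were at 0 in both, while Alb of liver had 0 and 1 reads and Scgb1a1 of lung 21 and 6. Depth alone limits the smallest genes, since 85 BL6 reads of 100 give an interval of 0.765 to 0.914.

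The median allelic ratio of the 42 genes was 0.95 in both libraries, against 0.533 in adult and 0.536 in aged nuclei over all tested genes. In 30 genes the lower interval limit was also at 0.85 or more in both libraries. After BL6 reads were scaled down to the CAST total of the autosomes in each library, 38 of the 42 genes still met the rule. An allelic ratio of 0.99 or more in both libraries was found for 8 genes. These were the imprinted genes Grb10, Meg3 and Rian and 5 genes outside the imprinted list, among them Ttll6, Ogdhl, Olfr1033 and Gm39020. Near-complete absence of CAST reads was thus seen in listed and unlisted genes alike. The opposite pattern, an allelic ratio of 0.15 or less in both libraries, was found for 10 genes, of which Airn, Sgce, Snurf and Snrpn are known as paternally expressed imprinted genes.

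**Figure D1:**
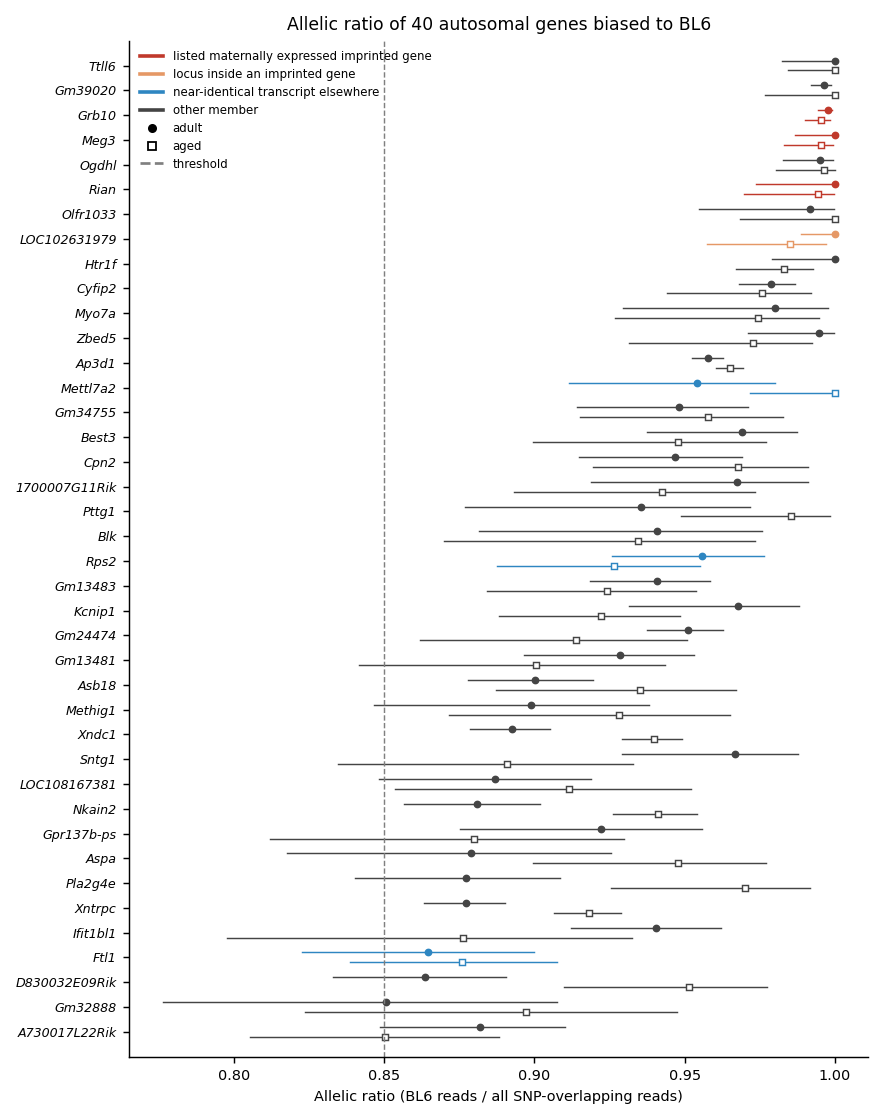
Allelic ratio (x axis, BL6 reads over all SNP-overlapping reads, which does not start at 0) of 40 of the 42 autosomal genes biased to BL6 in the adult (filled circles) and aged (open squares) library, with exact 95% intervals as lines. Genes are ordered by the lower of both ratios, colours give the listed imprinted genes, the locus inside an imprinted gene and the genes with a near-identical transcript elsewhere, and the dashed line is the threshold of 0.85.

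**Figure D2:**
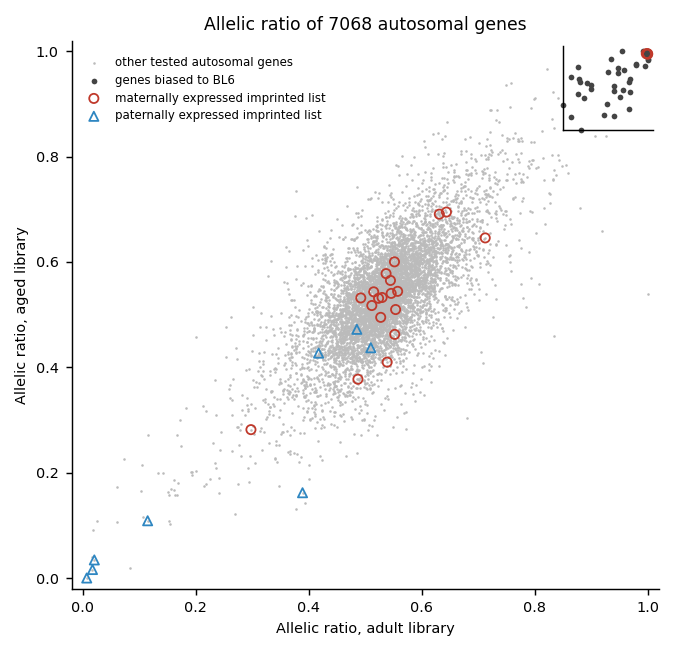
Allelic ratio in the adult (x axis) and aged (y axis) library for 7068 autosomal genes with 100 or more reads in each library. The 42 genes biased to BL6 fill the corner marked by lines at 0.85, where 3 of the 22 tested genes of the maternally expressed imprinted list (circles) lie, while 4 of the 8 tested paternally expressed genes (triangles) lie at 0.15 or less in both libraries.

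The 3 listed imprinted genes were read almost wholly from the BL6 allele in both libraries. Grb10, an adaptor that restrains insulin and growth factor receptor signalling and is maternally expressed in most tissues outside neurons, lies at chr11:11930499-12037422 (GRCm38). It had 2111 BL6 against 5 CAST reads in the adult library and 1297 against 6 in the aged library, which gives allelic ratios of 0.998 (95% interval 0.994 to 0.999) and 0.995 (0.99 to 0.998). Its level hardly differed between the ages, with 217 RPM in adult and 224 RPM in aged nuclei. Meg3, a long noncoding RNA of the Dlk1-Dio3 imprinted domain, had 275 reads of BL6 and 0 of CAST in the adult, and 423 of BL6 and 2 of CAST in the aged library. Rian, a noncoding RNA of the same domain that hosts small nucleolar RNAs, was covered by 139 BL6 reads and 0 CAST reads among adult nuclei, and by 181 and 1 in the aged library. A count of 0 CAST reads allows an allelic ratio down to 0.987 for Meg3 and 0.974 for Rian in the adult library. In contrast to Grb10, both RNAs of the Dlk1-Dio3 domain had more reads in the aged library, with RPM ratios (aged over adult) of 2.59 (95% interval 2.22 to 3.03) for Meg3 and 2.20 (1.75 to 2.76) for Rian.

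LOC102631979, an 8711 bp noncoding locus that lies wholly inside Grb10, had 328 BL6 against 0 CAST reads in the adult library and 200 against 3 in the aged library. Use of the strand in the counting is not stated, so the reads of a locus and of the gene that contains it cannot be told apart. The reads of LOC102631979 came to 15.5% of the number at Grb10 in adult and 15.6% in aged nuclei.

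The sequence at the start of Grb10, Meg3 and Ttll6 is shown as 300 bases of RefSeq (GRCm38.p6), from 250 bases before to 50 bases after the start, with CpG dinucleotides, the sites of DNA methylation, in capitals. Grb10 is shown at both of its annotated starts, upstream at chr11:12037371-12037670 and downstream at chr11:12027922-12028221 (minus strand), Meg3 at the upstream of its annotated starts, chr12:109540746-109541045 (plus strand), and, as a gene outside the imprinted list with no CAST read in either library, Ttll6 at chr11:96133536-96133835 (plus strand).
Grb10 upstream start: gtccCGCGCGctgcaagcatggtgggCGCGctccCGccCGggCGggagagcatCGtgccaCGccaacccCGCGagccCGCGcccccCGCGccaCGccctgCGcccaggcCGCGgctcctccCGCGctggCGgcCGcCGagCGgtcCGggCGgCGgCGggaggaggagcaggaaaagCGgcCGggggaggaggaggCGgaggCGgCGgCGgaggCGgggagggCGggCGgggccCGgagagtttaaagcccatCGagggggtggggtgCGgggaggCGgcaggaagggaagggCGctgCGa
Grb10 downstream start: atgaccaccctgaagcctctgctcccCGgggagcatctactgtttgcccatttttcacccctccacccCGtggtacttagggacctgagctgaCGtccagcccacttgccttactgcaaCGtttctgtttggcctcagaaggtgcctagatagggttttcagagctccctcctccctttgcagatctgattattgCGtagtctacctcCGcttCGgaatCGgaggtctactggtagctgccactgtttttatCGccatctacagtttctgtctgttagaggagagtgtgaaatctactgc
Meg3 upstream start: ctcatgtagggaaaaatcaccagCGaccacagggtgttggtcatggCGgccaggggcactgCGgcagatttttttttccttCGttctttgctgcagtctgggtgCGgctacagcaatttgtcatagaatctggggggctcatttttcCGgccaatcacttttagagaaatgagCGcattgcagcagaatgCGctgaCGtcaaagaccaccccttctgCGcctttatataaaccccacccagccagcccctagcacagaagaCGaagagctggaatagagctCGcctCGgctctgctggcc
Ttll6: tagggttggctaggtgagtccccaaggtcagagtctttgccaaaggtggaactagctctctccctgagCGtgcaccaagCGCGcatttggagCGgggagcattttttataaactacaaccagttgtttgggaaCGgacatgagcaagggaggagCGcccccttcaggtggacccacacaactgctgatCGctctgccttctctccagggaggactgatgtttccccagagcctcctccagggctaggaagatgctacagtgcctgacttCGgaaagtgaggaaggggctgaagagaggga
The upstream Grb10 start held 45 CpG and the downstream start 9, the upstream Meg3 start 13 and Ttll6 8, beside a median of 24 over 5277 tested genes with a promoter entry. The downstream Meg3 start (chr12:109545148-109545447), not shown, held 1 CpG. The start of the third listed imprinted gene, Rian (chr12:109603695-109603994), also not shown, held 0 CpG. At least 1 CpG was present in 99.6% of the promoters of the 5277 tested genes, and CG reads the same on both strands. A comparison of promoter CpG over all members was void, because only 30 of the 42 (71.4%) had an entry.

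Most genes of the maternally expressed list did not show the bias. Reads were found for 45 of the 50 listed genes, 22 were tested and 3 were biased to BL6. The list was not restricted to genes imprinted in the heart, so these ratios do not tell whether a gene is imprinted in other tissues. The other 19 had a median allelic ratio of 0.539 in adult and 0.533 in aged nuclei. They comprised Trappc9, Nap1l4, Cd81, Atp10a, Pon2, Osbpl5, Ano1, H13, Dcn, Ppp1r9a, Gnas, Pon3, Ago2, Ube3a, Copg2, Commd1, Ampd3, Kcnq1 and Igf2r. The highest ratio in the adult library was that of Ampd3, an AMP deaminase, with 0.712 in adult and 0.646 in aged nuclei. The lowest was that of Igf2r, a receptor that clears insulin-like growth factor 2, with 0.298 in adult and 0.282 in aged nuclei. Airn, the paternal noncoding RNA that is transcribed antisense across part of Igf2r, was covered by 5532 reads of CAST and 717 of BL6 in the adult library, and without strand the reads of the pair cannot be told apart. The same limit holds for Kcnq1 (0.487 in adult and 0.377 in aged nuclei) and its paternally expressed antisense RNA Kcnq1ot1. Kcnq1ot1 had 1508 CAST against 960 BL6 reads in the adult library and 730 against 141 in the aged library. Genes with too few reads in at least 1 library included Mirg, a further noncoding RNA of the Dlk1-Dio3 domain, with 37 BL6 against 0 CAST reads in the adult library and 96 against 0 in the aged library. H19, a maternally expressed noncoding RNA, had 6 BL6 reads in adult and 39 in aged nuclei and no CAST read. Htr2a, a serotonin receptor, had 89 reads of BL6 and 12 of CAST in the adult, and 34 of BL6 and 5 of CAST in the aged library.

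**Figure D3:**
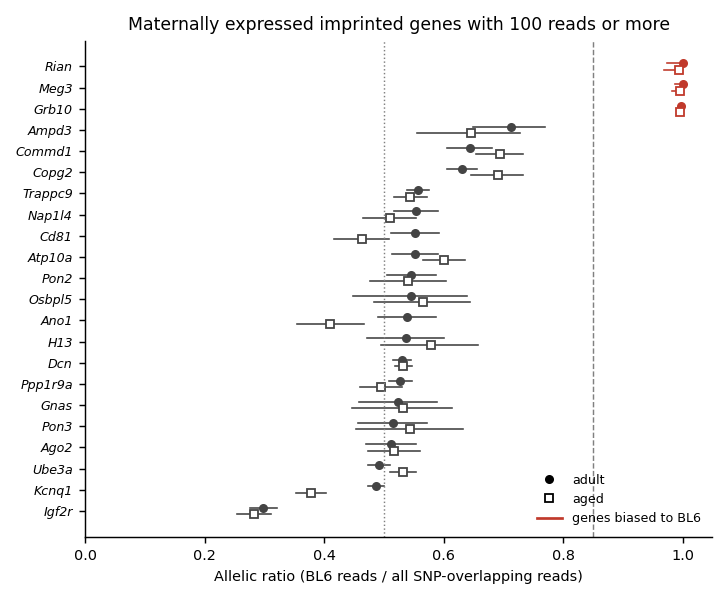
Allelic ratio (x axis) with exact 95% intervals of the 22 genes of the maternally expressed imprinted list with 100 or more reads in each library, for the adult (circles) and aged (squares) library. Rian, Meg3 and Grb10 (red) lie at 0.99 or more, whereas the other 19 genes lie between 0.282 and 0.712, left of the dashed line at 0.85.

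Outside the imprinted list, Ttll6, which adds glutamate chains to tubulin, was the only gene without a CAST read in either library, with 207 BL6 reads in adult and 237 in aged nuclei, which allows an allelic ratio down to 0.982 and 0.985. Ogdhl, a relative of the oxoglutarate dehydrogenase of the citric acid cycle, had 411 BL6 against 2 CAST reads in the adult library and 280 against 1 in the aged library. Olfr1033, an olfactory receptor gene, had 120 reads of BL6 and 1 of CAST in the adult, and 115 of BL6 and 0 of CAST in the aged library. These genes all had allelic ratios of 0.99 or more in both libraries, and none of them is on the imprinted list. Htr1f, a serotonin receptor coupled to inhibitory G proteins, was covered by 175 BL6 reads and 0 CAST reads among adult nuclei, and by 467 and 8 in the aged library. Zbed5, a gene derived from a DNA transposon, had 190 BL6 against 1 CAST read in the adult library and 142 against 4 in the aged library.

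Gm39020, a predicted locus at chr7:58842545-59081916, lies 12300 bp from Atp10a in a region that also holds the imprinted genes Ube3a, Snrpn and Snurf. It had 1625 reads of BL6 and 6 of CAST in the adult, and 157 of BL6 and 0 of CAST in the aged library, with lower limits of the allelic ratio of 0.992 and 0.977. Atp10a and Ube3a were not biased in this way, as Atp10a had an allelic ratio of 0.552 in adult and 0.600 in aged nuclei and Ube3a 0.492 and 0.532. Snrpn (0.020 and 0.034) and Snurf (0.007 and 0) were instead read almost wholly from the CAST allele. Gm39020 is not on the imprinted list, and whether its bias follows the parent or the strain cannot be told apart in this cross.

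Further protein-coding genes of high read number kept a small share of CAST reads. Ap3d1, a subunit of the AP-3 complex that sorts cargo to lysosomes, was covered by 5634 BL6 reads and 248 CAST reads among adult nuclei, and by 6252 and 226 in the aged library. These gave allelic ratios of 0.958 (0.952 to 0.963) and 0.965 (0.96 to 0.969), with intervals that overlap between the ages. Its nearest tested neighbour Dot1l had an allelic ratio of 0.412 in adult and 0.577 in aged nuclei. Cyfip2, a subunit of the actin-regulating WAVE complex, had 1015 BL6 against 22 CAST reads in the adult library and 200 against 5 in the aged library. It contains the locus of Fndc9, with which it may share reads. The reads of Fndc9 came to 19.6% of the number at Cyfip2 in adult and 9.76% in aged nuclei. Nkain2, a membrane protein that interacts with the sodium-potassium ATPase, was the longest of the genes with 1204.78 kb and had 731 reads of BL6 and 99 of CAST in the adult, and 1105 of BL6 and 69 of CAST in the aged library. Asb18, an ankyrin repeat protein with a SOCS box, was covered by 766 BL6 reads and 85 CAST reads among adult nuclei, and by 159 and 11 in the aged library.

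Genes of metabolism included Aspa and Pla2g4e. Aspa, which cleaves N-acetylaspartate, had allelic ratios of 0.879 in adult and 0.948 in aged nuclei, and Pla2g4e, a cytosolic phospholipase, 0.877 and 0.970. Genes linked to ion channels and the membrane were Best3, Kcnip1 and Sntg1. Best3, a bestrophin, had allelic ratios of 0.969 and 0.948, Kcnip1, which binds voltage-gated potassium channels, 0.968 and 0.922, and Sntg1, a syntrophin, 0.967 and 0.891. Other protein-coding genes were the myosin gene Myo7a (0.980 and 0.974), the securin gene Pttg1 (0.935 and 0.986), the B lymphocyte kinase gene Blk (0.941 and 0.935), the carboxypeptidase N subunit gene Cpn2 (0.947 and 0.968) and Ifit1bl1 of the interferon-induced Ifit family (0.941 and 0.876). These ratios are again given for the adult and then the aged library. Ifit1bl1 contains the loci of Ifit1bl2, Ifit3b and Ifit1, with which it may share reads. None of the 42 genes was on the lists of cardiac cell type markers, sarcomere, calcium handling or respiratory chain genes. These lists held few tested genes, with 24 (0.34% of all tested genes) for sarcomere, 10 (0.141%) for calcium handling and 17 (0.241%) for the respiratory chain. Each marker list held at most 6 tested genes, so nothing is read from this absence.

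Some members shared reads with each other, so the 42 genes are not 42 independent cases. Xndc1 and Xntrpc share 18272 bp on chromosome 7, since Xntrpc is annotated as a joint locus of Xndc1 and the neighbouring Trpc2. Xndc1 had 1942 BL6 against 234 CAST reads in the adult library and 2137 against 137 in the aged library. Xntrpc had 2064 reads of BL6 and 289 of CAST in the adult, and 2229 of BL6 and 199 of CAST in the aged library. Trpc2, the other part of the joint locus, had an allelic ratio of 0.662 in adult and 0.571 in aged nuclei. Mettl7a2, a methyltransferase-like gene, and Methig1, which contains it, share 8620 bp on chromosome 15. Mettl7a2 was covered by 166 BL6 reads and 8 CAST reads among adult nuclei, and by 129 and 0 in the aged library, and Methig1 had 169 BL6 against 19 CAST reads in the adult library and 129 against 10 in the aged library. Higd1c, the other locus inside Methig1, held 2 BL6 against 10 CAST reads in the adult library and 0 against 10 in the aged library.

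A transcript with at least 95% identity over at least 50% of its length was found at another gene for 3 of 36 genes with a transcript sequence (8.33%), against 1.49% of all tested genes. These were Rps2, Ftl1 and Mettl7a2, for which reads could be placed at the wrong copy, and their ratios are uncertain. The ratio of Methig1, which contains Mettl7a2, is uncertain for the same reason. A match of 100 bp or more at another gene was found for 9 of the 36 genes (25%), against 19.03% of all tested genes. Beside the genes above these were Asb18 (matching 13 genes), Zbed5 (3), and Olfr1033, Gpr137b-ps and A730017L22Rik (1 each). Only transcripts were compared, so copies of intron sequence were not searched for. Misplacement of reads was therefore not tested for the remaining genes. Rps2, a protein of the small ribosomal subunit, matched 27 genes, all of them pseudogenes, and was the only one of 35 tested ribosomal protein genes in the set. It had 282 reads of BL6 and 13 of CAST in the adult, and 239 of BL6 and 19 of CAST in the aged library. Ndufb10, which lies 139 bp away, had an allelic ratio of 0.548 in adult and 0.581 in aged nuclei. Ftl1, the ferritin light chain that stores iron, matched 5 genes, of which 4 are pseudogenes. It was covered by 281 BL6 reads and 44 CAST reads among adult nuclei, and by 332 and 47 in the aged library. Mettl7a2 matched 2 genes, of which Mettl7a1 was the closest with 95.5% identity. Mettl7a1 is also its nearest tested neighbour and had an allelic ratio of 0.655 in adult and 0.590 in aged nuclei.

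Long noncoding and predicted loci made up a larger part of the set than of the tested genes. Of the 42 genes, 28 were protein coding (66.7%, exact interval 50.5 to 80.4), against 88.8% of all tested genes, 10 were long noncoding RNAs (23.8% against 5.67%), 1 was a transcribed pseudogene and 3 had no type in the annotation. Predicted or clone-named loci numbered 11 (26.2%, exact interval 13.9 to 42.0), against 9.05% of all tested genes. Beside LOC102631979 and Gm39020 these were D830032E09Rik, Gm24474, Gm13481, Gm13483, A730017L22Rik, 1700007G11Rik, LOC108167381, Gm34755 and Gm32888. Gm24474 had 1130 BL6 against 58 CAST reads in the adult library and 159 against 15 in the aged library. Gm13481, Gm13483 and Gm34755 had ratios between 0.901 and 0.958 in either library. Gm32888, which spans 899 bp inside Psd3, had 0.85 in adult and 0.897 in aged nuclei, whereas Psd3 had 0.533 and 0.558. LOC108167381, which overlaps Tes, had 0.887 and 0.912. The pseudogene Gpr137b-ps had 0.922 and 0.880. Loci that overlap another locus numbered 22 (52.4%, 36.4 to 68.0), against 41.1% of all tested genes, and that interval contains the background share.

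1700007G11Rik contains a short locus with a read number above 50% of its own. It spans 473 kb on chromosome 5 and had 119 reads of BL6 and 4 of CAST in the adult, and 147 of BL6 and 9 of CAST in the aged library. Mir703, a microRNA locus of 109 bp inside it, was covered by 83 BL6 reads and 0 CAST reads among adult nuclei, and by 90 and 0 in the aged library, or 67.5% and 57.7% of the number at the host. The hairpin of Mir703 (chr5:98475556-98475664, minus strand, RefSeq) is shown with the mature microRNA in capitals, since the counts at these bases bear on the bias of the host locus.
Mir703: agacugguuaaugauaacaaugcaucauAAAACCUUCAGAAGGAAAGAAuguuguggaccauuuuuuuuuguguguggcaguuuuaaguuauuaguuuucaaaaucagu
The hairpin matched 4 other genes, the closest being Gm26384 on chromosome 17 with 96.4% identity. The placement of these reads is therefore uncertain.

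Flanking genes had allelic ratios near the median of all tested genes. The nearest tested locus overlapping no member was found for each of the 42 genes, at a median distance of 57.6 kb and within 100 kb for 27. These neighbours were 39 distinct loci, and a locus was counted once for each gene it served. So counted, they had a median allelic ratio of 0.527 in adult and 0.520 in aged nuclei, ranging from 0.403 to 0.655 and from 0.370 to 0.668. By construction a neighbour could neither be a member nor overlap one, and it needed 100 or more reads in each library. Biased loci beside a member were thus passed over, as with Meg3, for which Rian was skipped and Wdr25 at 512543 bp taken. Since only 0.594% of all tested genes met the rule, ratios near the median were likely, and nothing is read from them. A730017L22Rik, the noncoding locus with the lowest aged ratio (0.882 in adult and 0.85 in aged nuclei), lies 50 bp from Atrn, which had 0.460 and 0.474. Ftl1 lies 1326 bp from Gys1, which had 0.579 and 0.583.

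**Figure D4:**
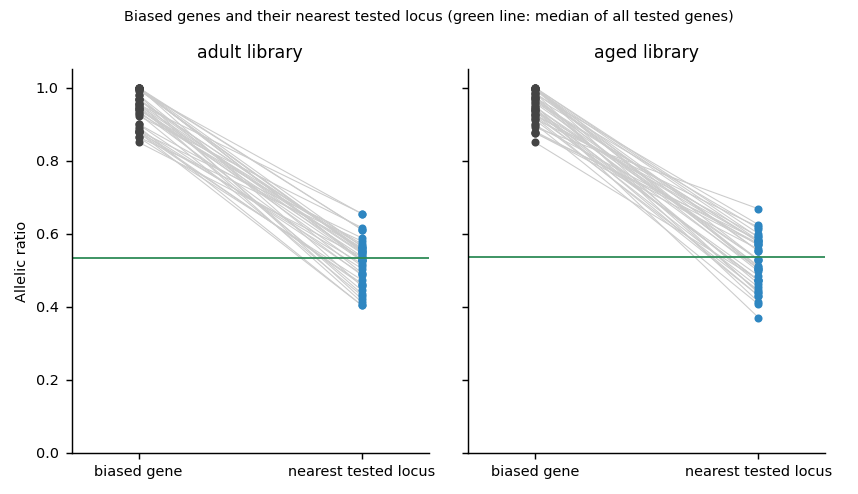
Allelic ratio (y axis, from 0) of the 42 genes biased to BL6 and of the nearest tested locus that overlaps no member, in the adult (left) and aged (right) library, with lines joining each pair. The neighbours lie between 0.370 and 0.668 around the green line, the median of all tested genes, and some loci serve as neighbour of more than 1 gene.

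The threshold divided a continuous range. The genes just inside were A730017L22Rik, Gm32888, D830032E09Rik (0.864 in adult and 0.951 in aged nuclei), Ftl1 (0.865 and 0.876) and Ifit1bl1. Those just outside were 4930481A15Rik (0.842 and 0.911), 2610035D17Rik (0.926 and 0.840), Cdc42ep5 (0.907 and 0.840), Gm34180 (0.834 and 0.855) and Kcnc2 (0.832 and 0.923). The rule was met in the adult library alone by 7 genes and in the aged library alone by 17 genes. Of the 7068 tested genes, 49 reached the threshold with adult reads and 59 with aged reads. The aged library held fewer reads, which widens the scatter of its ratios around 0.85. The part of depth in these counts was not tested, so nothing is read from them about age.

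The allelic ratio was next compared between the ages. The exact intervals of the 2 libraries did not overlap for 5 of the 42 genes (11.9%), against 17.0% of all tested genes (9.28% higher in the aged and 7.71% higher in the adult library). Since the rule bounds both ratios, nothing is read from this share. All 5 had the higher ratio in the aged library, namely D830032E09Rik, Nkain2, Pla2g4e, Xndc1 and Xntrpc, of which the last pair shares reads. For Nkain2 the BL6 level was 75.0 RPM in adult and 190 RPM in aged nuclei, while the CAST level was 10.2 and 11.9 RPM. For Xndc1 the BL6 level was 199 and 368 RPM and the CAST level 24.0 and 23.6 RPM. The higher ratio of Nkain2 and Xndc1 thus went with a higher BL6 level beside a similar CAST level. The CAST level of Xndc1 may include reads of Rnf121, which overlaps it. For Pla2g4e both alleles were lower in the aged library, with BL6 levels of 34.5 and 22.4 RPM and CAST levels of 4.82 and 0.689 RPM. D830032E09Rik showed the same order, with BL6 levels of 51.3 and 30.3 RPM and CAST levels of 8.10 and 1.55 RPM.

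The total level of the genes, which the rule used only through the minimum of reads, was compared between the ages as RPM. The RPM ratio (aged over adult) was 1.5 or more for 17 of the 42 genes (40.5%), against 24.3% of all tested genes, and 1/1.5 or less for 7 (16.7%), against 9.93%. Its interval lay wholly beyond the 1.5-fold line for 11 of the 17 and for 6 of the 7. The matching share over all tested genes was not taken, so nothing is read from these counts. The genes also held fewer reads (median 312.5 in adult and 174 in aged nuclei) than all tested genes (492 and 327). Fewer reads widen the spread of ratios in both directions, and the part of depth in these shares was not tested. Because the median ratio of all tested genes was 1.16 (0.21 on the log2 scale), the split was also taken relative to this median. It was then 12 higher (28.6%, against 14.0% of all tested genes) and 11 lower (26.2%, against 16.0%). Fewer cells of a type and less RNA per cell cannot be told apart in such pooled nuclei.

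Htr1f had the highest ratio, with 18.0 RPM in adult and 81.8 RPM in aged nuclei, or 4.56-fold (3.82 to 5.45). Kcnip1 followed with 3.00-fold (2.50 to 3.61) and, after Meg3, Nkain2 with 2.37-fold (2.17 to 2.60). The remaining genes at 1.5-fold or more were Rian, 1700007G11Rik, Myo7a, Ftl1, Ttll6, Pttg1, Ap3d1, Xndc1, Xntrpc, Aspa, Sntg1, Olfr1033 and Blk, with ratios between 1.52 and 2.20. At the other end, Gm39020 had 167 RPM in adult and 27.0 RPM in aged nuclei, a ratio of 0.162 (0.136 to 0.190). Gm24474 had a ratio of 0.246 (0.209 to 0.289), Cyfip2 0.332 (0.284 to 0.386), Asb18 0.335 (0.283 to 0.396) and Ifit1bl1 0.456 (0.364 to 0.566). Genes read almost wholly from BL6 were found at either end of this range and between, as with Htr1f, Gm39020 and Grb10 (1.03).

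Markers of several cell types differed in level between the same libraries. The summed RPM of the 4 smooth muscle markers was 94.2 in adult and 283 in aged nuclei, that of the 6 endothelial markers 389 and 782, of the 6 pericyte markers 118 and 214 with Kcnj8 at 0 in both, and of the 6 fibroblast markers 572 and 932. The 3 epicardial markers summed to 46.5 and 11.4 RPM and the 3 endocardial markers to 523 and 325 RPM. Some markers went against their sum, namely Cgnl1 of endocardial cells (174 and 192 RPM) and Col1a2 of fibroblasts (42.3 and 37.5). The others were Vwf of endothelial cells (33.2 and 31.7) and Abcc9 of pericytes (24.8 and 21.2). Most of the fibroblast sum came from Dcn, with 461 and 773 RPM. The part of cell composition in the levels of the 42 genes was not tested.

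**Figure D5:**
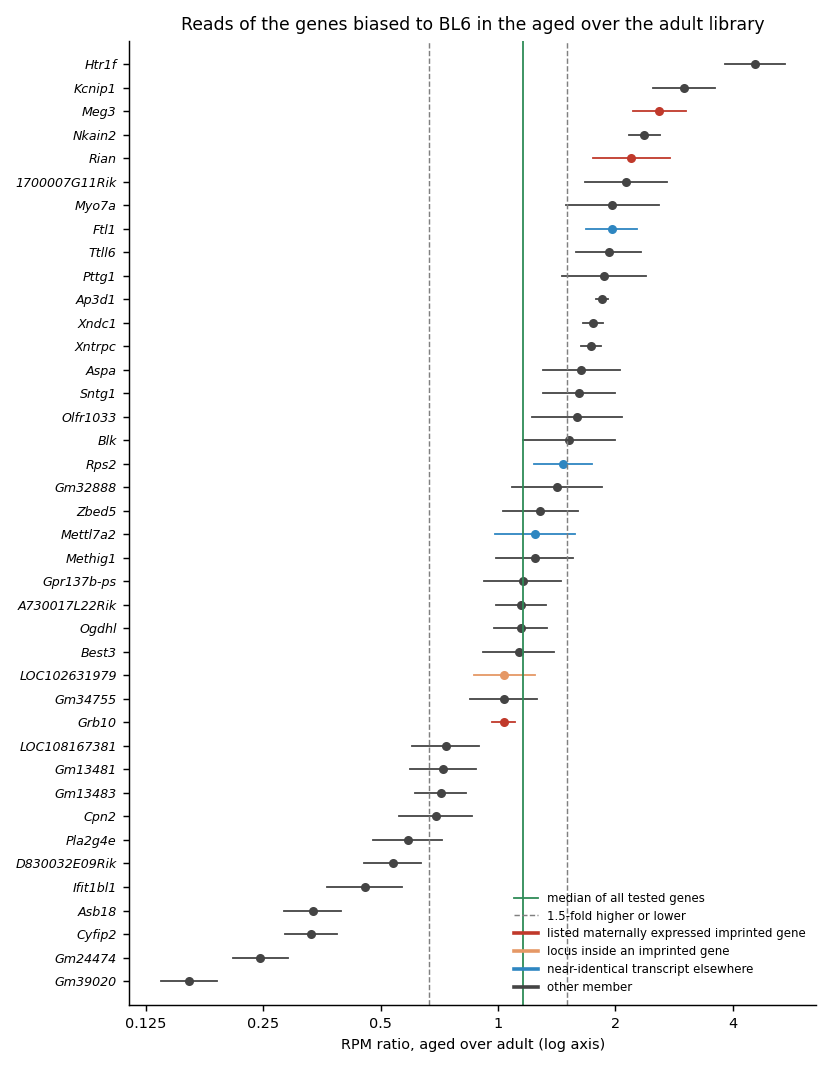
RPM ratio of the aged over the adult library (x axis, log scale) for 40 of the 42 genes biased to BL6, with 95% counting intervals as lines. Dashed lines mark 1.5-fold higher and lower and the green line the median of all tested genes at 1.16. The ratios run from 0.162 for Gm39020 to 4.56 for Htr1f, with 17 genes at or right of the upper and 7 at or left of the lower dashed line.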

How the data were processed

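Single-nucleus RNA reads of 1 adult and 1 aged heart were aligned by the authors with Cell Ranger (7.1.0 in the submitters' processing notes), separated by nucleus with sinto and assigned to alleles by Allelome.PRO2 with RefSeq genes (GRCm38). The authors deposited, per gene, unnormalized counts of BL6, CAST and all SNP-overlapping reads, the allelic ratio as a fraction rounded to 2 decimals, and an allelic score, which was not used. The authors treated the expression matrices with CellBender for ambient RNA and DoubletFinder for doublets. The allelic counts come from the alignments, and whether the pooled nuclei were limited to those that passed, duplicate reads were collapsed or strand was used is not given in the sources used here. A file name carries another age than the label of the aged sample, and the label was used.

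Allelic ratios and RPM (per 1000000 SNP-overlapping reads of all genes) were computed from the deposited counts with Python 3.11.15, NumPy 2.4.6, pandas 2.3.3 and SciPy 1.17.1. Allelic ratios have exact Clopper-Pearson 95% intervals and RPM ratios exact conditional binomial ones. Reads without molecular identifiers are not independent molecules. Interval functions were tested on simulated data. Transcripts of GENCODE M21 were compared with blastn 2.17.0. Starts are given 1-based.

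Members and lists were chosen with earlier results of these data known. Named are listed imprinted genes, the 20 members with most reads, those without CAST reads, the 5 on either side of the threshold, the 5 highest and 5 lowest RPM ratios, members within 100 kb of each other, members on marker lists and members with separate intervals. Other members are named to account for the set, except that 2 of the 42 are not reported here singly, and genes beside them (such as neighbours, overlapping loci, Mirg, H19 and Htr2a) were chosen after their values were seen. The search for transcript copies was added after the data were seen. Protein lengths were not analysed here.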

Additional observations from a re-analysis of the deposited data

How the results depend on the processing

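No paired analysis was possible because each age has 1 library, and no replicate could be left out. The number of genes biased to BL6 (42 of 7068) was 146 of 12390 with a minimum of 20 reads and 16 of 4788 with 200 reads, and 20 of 4162 without overlapping loci. At an allelic ratio of 0.90 it was 28, with the lower interval limit at 0.85 it was 30, after thinning the adult library to the depth of the aged one 35 (34 of them among the 42), and with both libraries summed 48. Listed maternally expressed genes numbered 5 with 20 reads, by the addition of Mirg and Htr2a, and 1 without overlapping loci, which leaves out Grb10 and Rian by construction. The 17 genes higher in the aged library became 65 with 20 reads, 7 with 200 reads, 11 at a ratio of 0.90, 10 without overlapping loci, 10 after thinning and 6 at a fold of 2. The 7 lower genes became 28 with 20 reads, 1 with 200 reads, 4 at a ratio of 0.90, 4 with the lower interval limit, 3 without overlapping loci and 11 relative to the median. Settings that change the minimum of reads, the ratio or the loci left out change the number of genes counted by construction. The 5 genes with separate intervals became 3 without overlapping loci. The share of overlapping loci of 52.4% became 14.3% when at least 50% of the gene had to be covered. The ratio of Olfr1033 in the adult library moved from 0.992 to 1 after thinning, beyond its counting interval. Leaving out genes with near-identical transcripts, or keeping 1 locus per group of overlapping members, gave 39 genes each, and both settings were chosen after seeing the data. The other settings left these counts within 1.5 times their value.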
